A study of Prunus persica with 8 samples.

Results

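In the flower buds of the peach cultivar Fantasia, 77 of the 22285 features of the deposited expression table were both abundant and steady through winter chilling. The members were chosen by their stage values. A member was a feature with a PRUPE_ identifier whose lowest stage value was at least 50 FPKM (FPKM is a fragment number scaled to feature length and library size) and whose log2(FPKM + 1) spanned at most 0.15 from its lowest to its highest stage. The level limit was met by 1166 of the 20839 PRUPE_ features, and 77 of these, or 6.6%, also met the limit on the range. Among the 16036 PRUPE_ features with at least 1 FPKM at every stage, the share that met the limit on the range was 8.13%. Both limits were set on the stage values themselves, so the level and the steadiness of the members over the stages are descriptions and were not tested.

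RNA-Seq was carried out on flower buds of the Fantasia genotype taken from orchard trees 10 years of age after 0, 200, 475 and 770 units of accumulated cold (chilling units, CU). The labels give 2 libraries for each stage, prepared from total RNA after removal of ribosomal RNA and sequenced as paired-end reads of 150 nt. In the deposited table each feature has 1 FPKM value per stage. All groups shared the genotype, the tissue and the untreated field conditions. The study's methods state that bud scales were removed before freezing, and describe replicates as buds from separate groups of trees for all stages except 200CU, which they do not mention. For 475CU they give more replicates than the 2 libraries of the labels, so the described replicates need not match these libraries. The same methods give 1 collection date each for 0CU, 475CU and 770CU, and none for 200CU. Chilling, calendar date and bud development therefore cannot be told apart. Where the 2 libraries of a stage do not come from separate trees, the p-values below measure only a spread that may be technical.

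Peach flower buds pass the winter in endodormancy, a state in which growth stays arrested even in favourable weather until a cultivar-specific amount of cold has been met. In such a series many transcripts change, and a measurement of one gene by real-time PCR is usually expressed relative to a reference gene whose own transcript level should be the same in all the samples compared. Reference genes in plants are commonly taken from basal functions such as ubiquitin, actin, tubulin or translation factors.

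The table does not pair its identifiers with gene names, and 0 of its 22285 identifiers were found among the 26412 genes of the RefSeq table used here (assembly Prunus_persica_NCBIv2). No function could therefore be given to a member, families of basal genes could not be counted, and only a few identifiers are printed, exactly as deposited. By their identifiers 17 members belonged to PRUPE_1G, 6 to PRUPE_2G, 13 to PRUPE_3G, 8 to PRUPE_4G, 8 to PRUPE_5G, 12 to PRUPE_6G, 6 to PRUPE_7G and 7 to PRUPE_8G. The largest of these groups held 22.1% of the members, against 23.0% of all abundant features. PRUPE_3G018300 and PRUPE_3G018400 were the 1 pair of members with consecutive identifiers.

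The members were well expressed but were seldom among the most abundant transcripts. Their mean over the stages ran from 52.0 to 399.99 FPKM with a median of 86.6 FPKM, while the other 1089 abundant features had a median of 103.6 FPKM and reached 6246 FPKM. Even the lowest member had a mean above that of 93.0% of the PRUPE_ features. Steady genes made up 2.65% of the 226 abundant features whose mean reached 200 FPKM, 5.95% of the 370 between 100 and 200 FPKM and 8.60% of the 570 below 100 FPKM. The share was thus lower at higher levels.

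The highest mean belonged to PRUPE_3G002900, with 390.8, 395.2, 424.3 and 389.7 FPKM at 0, 200, 475 and 770CU. Its value at 475CU stood above the other stages, which lay close together. PRUPE_1G372700 followed with 354.2, 346.9, 362.0 and 382.2 FPKM at the same stages, and was highest at 770CU. The members as a whole were even at each stage. Over the 4 stages in order of chilling, their geometric mean was 93.1, 92.8, 94.4 and 92.3 FPKM, and their summed FPKM made up between 1.89% and 1.98% of the sum over all PRUPE_ features.

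**Figure D1:**
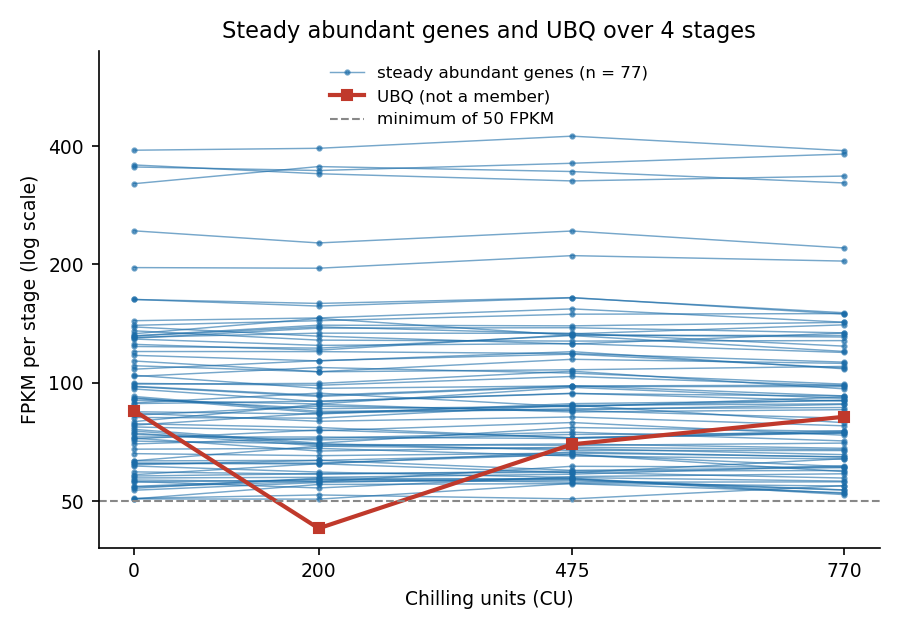
FPKM of the 77 steady abundant genes (blue lines, 1 per gene) and of UBQ (red) at 0, 200, 475 and 770 chilling units, on a logarithmic axis, with the minimum of 50 FPKM as a dashed line. The members form near-horizontal lines from 50.5 to 424.3 FPKM, while UBQ drops to 42.6 FPKM at 200CU.

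Within the limit, the ranges of the members were spread unevenly. The range had a median of 0.11 on the log2(FPKM + 1) scale, with quartiles of 0.09 and 0.13, and 52 of the 77 members lay above 0.1. Expressed as a fold, the highest stage value exceeded the lowest by a factor of at most 1.11, with a median of 1.08. Among the other 1089 abundant features the median range was 0.45, corresponding to a median factor of 1.37, and 111 of all 1166 abundant features spanned at least 1. Near-constant values were rare, as 3 abundant features had a range of at most 0.05.

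The smallest range belonged to PRUPE_3G011800, with 59.3, 58.5, 59.6 and 59.8 FPKM at 0, 200, 475 and 770CU and a range of 0.030. PRUPE_4G072600 was next, with 66.0, 65.2, 66.2 and 64.8 FPKM and a range of 0.031. In neither gene did any stage stand apart from the rest. At the limit itself, PRUPE_6G307000 and PRUPE_1G063400 were just inside with ranges of 0.1475 and 0.1473, and PRUPE_5G188000 and PRUPE_2G255200 were just outside with ranges of 0.1505 and 0.1527. On the level limit, PRUPE_8G159400 and PRUPE_2G147200 were just inside with lowest values of 50.5 and 50.6 FPKM, and PRUPE_5G132400 and PRUPE_3G313800, which met the limit on the range with 0.089 and 0.142, were just outside with 49.34 and 49.30 FPKM. These edges show no gap in either measure.

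**Figure D2:**
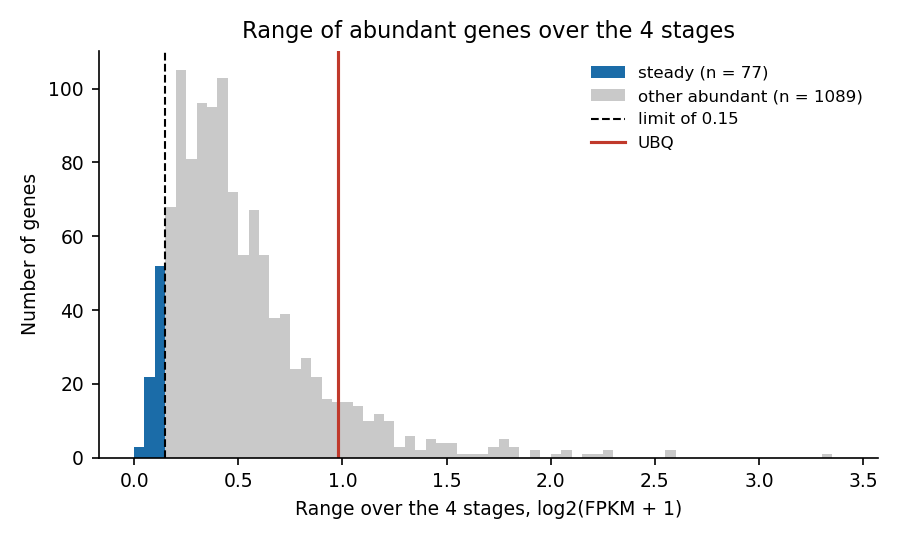
Number of abundant genes (vertical axis) by their range over the 4 stages on the log2(FPKM + 1) scale (horizontal axis, bins of 0.05), for the 77 steady genes (blue) stacked with the 1089 other abundant genes (grey). The dashed line marks the limit of 0.15 at the left end of a single distribution, and the red line the range of UBQ, 0.98.

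Under the deposited scaling, the small movements left within the limit were not distributed evenly over the stages. The highest value was that of 475CU for 32 members, of 0CU for 19, and of 200CU and 770CU for 13 each. The lowest value was that of 770CU for 31 members, of 200CU for 21, of 0CU for 16 and of 475CU for 9. Members stood a median of 0.022 above their own mean at 475CU and 0.018 below it at 770CU. Among the other abundant features 475CU was also seldom the lowest stage, in 3.31% of features against 11.7% of the members, whereas 0CU was the lowest stage in 47.1% of them against 20.8% of the members. Between 770CU and 0CU, 31 members were higher and 46 lower at 770CU, with differences from 0.15 down to -0.14 and a median of -0.017. Of the other 1089 abundant features 621 were higher and 468 lower at 770CU, with a median of 0.096. The sign of these medians belongs to the deposited scaling, as with the same total over all features the median member was 0.33 above its 0CU level at 770CU. The highest and lowest stages of the members also belong to that scaling. As deposited, the median member was 0.028 above its 0CU level at 475CU and 0.017 below it at 770CU. With the same total over the PRUPE_ features it was 0.044 below at 475CU and 0.017 above at 770CU. The values increased at every step in 3 members and decreased at every step in 3, against 159 and 117 of the other abundant features.

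Under the deposited scaling, the stage that most limited the number of steady genes was 0CU. The counts were not repeated under other scalings, so a shift of the whole 0CU stage cannot be told apart from changes of single genes. With that stage left out, 375 abundant features met the limit of 0.15 over the remaining stages, against 184 without 770CU, 162 without 200CU and 117 without 475CU. All 77 members are among each of these by construction.

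A value per stage carries no replicate error. For 21969 features (98.6%), however, a single feature length and a pair of whole fragment numbers per stage, 1 for each library, were found that rebuild all 4 deposited values to their last digit as averages of the pair. This gave FPKM in 8 recovered libraries for 59 of the 77 members and for 846 of the other abundant features. Of the same 2000 features, 1975 could be split as deposited and 8 after a relative shift of their values of up to 1e-06. The effective library sizes lay between 18051083 and 25374451 fragments, and the libraries are named as the larger or smaller of their stage, since their replicate numbers are not known. The 18 members that could not be split all had a mean above 108 FPKM. At such levels too many lengths give whole numbers by chance unless the feature is short. The split members above 108 FPKM had lengths from 747 to 1302 bases. The library values therefore describe mostly the members of lower abundance (median mean of 73.7 FPKM, against 133.6 FPKM for those not split) and, at higher levels, shorter ones. The limit on the range used the stage means, and the difference between the 2 libraries of a stage did not enter it directly, although the means average the same libraries.

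For any gene the range over the single libraries cannot be smaller than over the stage values, as each stage value averages 2 libraries. Over the 8 libraries the members had a median SD of 0.066 and a median range of 0.19 on the log2(FPKM + 1) scale. Their median coefficient of variation was 4.69%. The range over the 8 libraries stayed within 0.15 in 8 of the 59 members, within 0.2 in 32 and within 0.3 in 48. For the other abundant features the median SD was 0.20 and the median range 0.58, and of the 846 features 0 stayed within 0.15, as their stage values alone already span more, 8 within 0.2 and 67 within 0.3.

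**Figure D3:**
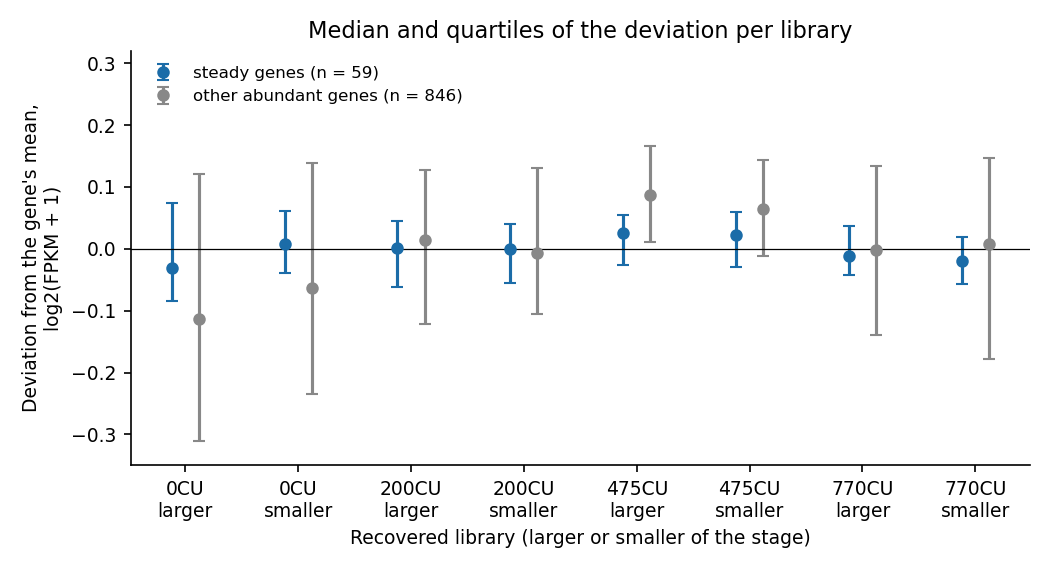
Deviation of each gene from its mean over the 8 recovered libraries on the log2(FPKM + 1) scale, with points for the median and bars for the quartiles, for 59 steady genes (blue) and 846 other abundant genes (grey) in the larger and smaller library of each stage. The medians of the steady genes lie between -0.030 and 0.025 in all 8 libraries, and the quartiles of the other abundant genes reach -0.31 in the larger 0CU library.

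The SD of a single library within its stage is given beside the SD of the stage values, whose spread is bounded by the choice of genes. A stage value averages 2 libraries, so these SDs do not measure like quantities. Their order does not weigh variation among stages against variation among libraries. Over the 59 split members the pooled SD of a library within its stage had a median of 0.064. The SD of the 4 stage values had a median of 0.051. In the other abundant features the median within-stage SD was 0.090 and the median SD of the stage values 0.196. The within-stage SD had a smaller median in members than in the other abundant features. The quartiles overlapped, with 0.052 to 0.095 for members against 0.061 to 0.131 for the others. This SD did not enter the limit directly, but the stage means carry part of the same library variation. Across the split abundant features, the range over stages and the within-stage SD had a Pearson correlation of 0.27. The smaller median is therefore not independent of the choice of genes. In order of chilling, the median absolute difference between the 2 libraries of a stage was 0.118, 0.085, 0.055 and 0.066 for members, against 0.119, 0.118, 0.065 and 0.080 for the other abundant features. In both sets the libraries of 475CU were the closest to each other and those of 0CU the farthest apart.

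A difference above 0.15 between the libraries of 1 stage, that is larger than the limit set across stages, was found in 44 of the 236 comparisons among members (18.6%), against 30.4% among the other abundant features, and 23 of the 59 members had at least 1, against 580 of the 846 other abundant features. The SD of such a difference expected from the fragment numbers alone, which covers counting error only, was 0.033 to 0.036 for the median member depending on the stage. The source of the rest was not tested.

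The members with the least variation over the libraries were PRUPE_4G207800 and PRUPE_5G101300. In PRUPE_4G207800, in order of chilling, the larger libraries had 73.0, 73.3, 71.9 and 75.7 FPKM and the smaller ones 72.6, 72.2, 72.3 and 73.9 FPKM. The 8 values spanned 0.073 with an SD of 0.024, a coefficient of variation of 1.68%, and the 770CU libraries were slightly above all others. PRUPE_5G101300 had 72.4, 76.3, 71.6 and 76.2 FPKM in the larger libraries and 71.6, 75.3, 73.3 and 72.6 FPKM in the smaller ones, with an SD of 0.038. Both 200CU libraries were above those of 0CU and 475CU, and both 770CU libraries were slightly above those of 0CU. These genes were covered by at least 2963 and 3161 fragments in every library.

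The members with the most variation were PRUPE_8G057700 and PRUPE_4G174100, in which a steady stage mean concealed libraries that stood apart. PRUPE_8G057700 had stage values of 90.2, 88.3, 97.3 and 91.2 FPKM at 0, 200, 475 and 770CU. Its larger libraries, however, had 73.8, 103.1, 91.7 and 101.1 FPKM and its smaller ones 106.6, 73.5, 102.9 and 81.4 FPKM, with an SD of 0.22. The difference between the 2 libraries at 0CU was -0.53, beside an SD of 0.077 expected from counting. PRUPE_4G174100 had 65.2, 46.5, 59.8 and 54.9 FPKM in the larger libraries and 46.9, 61.5, 55.6 and 62.5 FPKM in the smaller ones, with an SD of 0.18. In this gene the libraries of 0CU and 200CU diverged in the opposite sense to those of PRUPE_8G057700, and the stages overlapped in both.

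**Figure D4:**
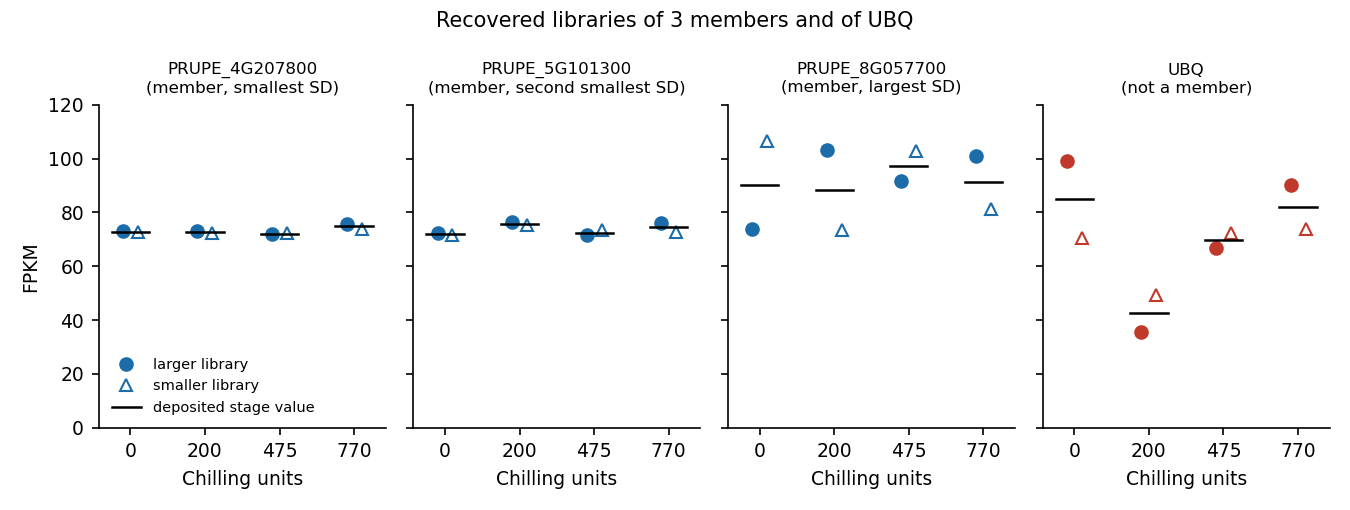
FPKM of the larger (filled circles) and smaller (open triangles) recovered library at each stage, with the deposited stage value as a black line, for the 2 members with the smallest SD, the member with the largest SD, and UBQ. The libraries of PRUPE_4G207800 and PRUPE_5G101300 lie between 71.6 and 76.3 FPKM, those of PRUPE_8G057700 between 73.5 and 106.6 FPKM, and those of UBQ between 35.7 and 99.1 FPKM.

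The choice among members can also be made by the ratio of a gene to the others, as is usual for real-time PCR references, which removes any scaling common to a library. The mean SD of the log2 ratio of a member to each of the other 58 split members was 0.106 in the median and ran from 0.087 for PRUPE_4G207800 to 0.231 for PRUPE_8G057700. The 5 members with the smallest SD over the libraries were also the 5 with the smallest SD of the ratio. PRUPE_4G207800 was therefore first and PRUPE_8G057700 last by both measures.

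Among the split features, members were long transcripts more often than the other abundant features. Lengths were known only for split features, and features both long and highly abundant were the least likely to be split. Members were also more common at lower levels, so length and level are not separated in the shares below. The feature length recovered with the fragments had a median of 1907 bases in the 59 members and of 1386 bases in the other 846. Steady genes made up 10.6% of the abundant features of at least 2000 bases, 5.39% of those from 1000 to below 2000 bases, 3.59% of those from 500 to below 1000 bases and 5.41% of the 37 shorter features. The median within-stage SD of the abundant features in these 4 length classes was 0.075, 0.086, 0.109 and 0.199, and the SD expected from counting was 0.030, 0.037, 0.044 and 0.065. Across the 59 members the log2 length and the within-stage SD had a Pearson correlation of -0.48, a description over genes that share the same 8 libraries and whose fragment number follows from length. PRUPE_8G057700 was 414 bases long and PRUPE_4G174100 954 bases, whereas PRUPE_4G207800 was 2260 bases and PRUPE_5G101300 2445 bases long. The part of length in the steadiness of the members was not tested.

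The ubiquitin gene UBQ (PRUPE_4G204900), to which the study normalized its real-time PCR in fruit mesocarp, was not a member. Ubiquitin marks proteins for degradation, and its genes are common PCR references. UBQ had 84.9, 42.6, 69.7 and 81.9 FPKM at 0, 200, 475 and 770CU, so that it missed the level limit at 200CU. Its range of 0.98 was 8.70 times that of the median member. The members were chosen for a small range, so this multiple follows in part from that choice. Of the 1166 abundant features, chosen by level alone, 89.7% had a smaller range than UBQ. In order of chilling, its larger libraries had 99.1, 35.7, 66.9 and 90.0 FPKM and its smaller ones 70.7, 49.5, 72.5 and 73.8 FPKM. Both 200CU libraries lay below all 6 others, and those of 0CU overlapped with those of 475CU and of 770CU.

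The change of UBQ was tested with limma over the 18327 features that reached 1 FPKM in 2 or more recovered libraries, of which 8033 (43.8%) differed among the 4 stages at a Benjamini-Hochberg adjusted p below 0.05. UBQ was among them (limma F-test, adjusted p = 0.0171), although not without the larger 200CU library (limma F-test, adjusted p = 0.078). It was lower at 200CU than at 0CU by -0.98 (SE 0.20, limma adjusted p = 0.0132), a contrast in which 10.9% of features were called lower. It was not distinguishable between 770CU and 0CU, with a difference of -0.04 (SE 0.20, limma adjusted p = 0.89), nor between 475CU and 0CU, with -0.26 (SE 0.20, limma adjusted p = 0.36). The call at 200CU depended on single libraries, since limma gave an adjusted p of 0.058 without the larger 0CU library and of 0.060 without the larger 200CU library. Relative to the geometric mean of the split members in the same library, UBQ stood at 0.44 and 0.61 in the larger and smaller library of 200CU, and between 0.81 and 1.22 in the libraries of the other stages. Its SD over the 8 libraries was 0.46, against 0.22 in the most variable split member, where the choice of members bounds the part from the stages. In the other abundant features this SD had a median of 0.20 and an upper quartile of 0.29.

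Whether the members are steady depended on how the stages were scaled. The deposited FPKM of the PRUPE_ features summed to 418402, 425686, 439958 and 408693 in order of chilling. The features with ENSRNA identifiers, by contrast, took 42.5%, 30.5%, 35.0% and 28.6% of all FPKM at these stages. Rescaling each stage to the same total over all features, as TPM does, put the median member 0.24 (200CU), 0.13 (475CU) and 0.33 (770CU) above its 0CU level on the log2 scale, a shift common to all features and equal to 0.35 between 770CU and 0CU before the pseudocount, and 0 of the 77 members then met the limits, while 37 other features did. With the same total over the PRUPE_ features alone, 52 members were kept among 87 features that met the limits. Scaling by the median ratio of all features kept 74 of 77, and quantile normalization kept 37 among 94. The factors of the median ratio were between 0.992 and 0.998 in all stages, so that this scaling left the values nearly as deposited.

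**Figure D5:**
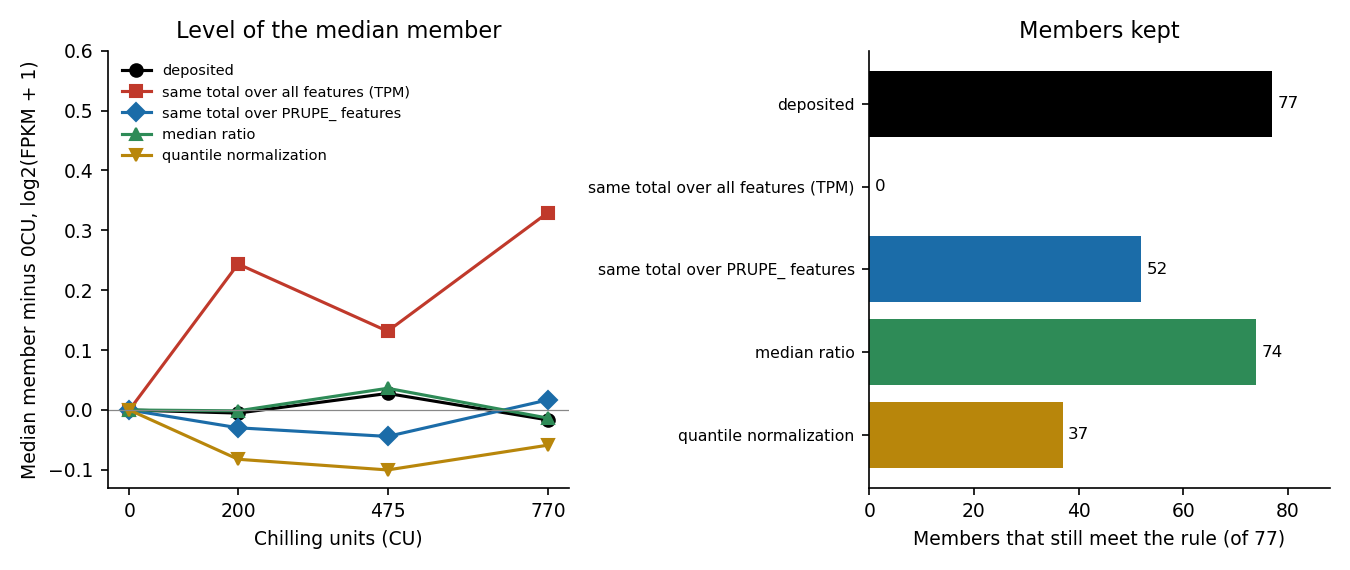
Left, level of the median member at 0, 200, 475 and 770 chilling units relative to 0CU on the log2(FPKM + 1) scale, under the deposited scaling and 4 others. Right, number of the 77 members that still meet both limits under each scaling, in the same colours. Under the deposited scaling the median member stays between -0.017 and 0.028, with the same total over all features it reaches 0.33 at 770CU and no member is kept.

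Dividing by the members gives the same ratio under any scaling that multiplies a stage by 1 factor. The members were chosen as steady under the deposited scaling, however, so the ratio stays near the deposited difference by that choice. It cannot decide which scaling is right. The 37 features that met the limits with the same total over all features were not used as divisors. HDA19-like (PRUPE_8G183700), a histone deacetylase gene that the study followed during dormancy, had 33.4, 56.3, 59.3 and 63.8 FPKM at 0, 200, 475 and 770CU. Its difference between 770CU and 0CU was 0.92 in the deposited FPKM and 1.26 with the same total over all features. Relative to the geometric mean of the members it was 0.95 in either case, as a log2 ratio without the pseudocount. The deposited log2 ratio without the pseudocount was 0.94. For UBQ the difference was -0.05 as deposited and 0.30 with the same total over all features, and the ratio to the members -0.04. Limma did not distinguish 770CU from 0CU for UBQ under the deposited scaling (limma adjusted p = 0.89) or with the same total over all features (limma adjusted p = 0.22).

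The steadiness of single members also rested on the averaging of libraries. When a stage was represented by 1 of its 2 libraries, between 48 and 68 split features met the limits, against 59 with both, and between 33 and 53 of the 59 members were kept. The fewest were kept without the smaller 0CU library and the most without the smaller 475CU library. Across the 8 omissions, 15 of the 59 members met the limits every time.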

How the data were processed

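RNA-Seq data of 8 flower bud libraries, 2 per stage by the labels, were used. The authors deposited FPKM, with 1 column per stage and 22285 features; Trimmomatic 0.39, HISAT2 and featureCounts are named in the submitters' processing notes, and the genome build of the RNA-Seq is not given in the sources used here (the study's methods name the P. persica genome from Ensembl for its ChIP-Seq). Stages were compared on log2(FPKM + 1), which understates changes of low genes. The design assumed tests only if single libraries could be had, and the split into libraries was applied after the table had been seen. Each value was written as the mean of 2 libraries with whole fragments, at the shortest length between 30 and 20000 bases, where chance allowed at most 0.01 lengths. On simulated data 21908 of 21969 features were split with the true fragments, given the sizes. Limma (trend, Benjamini-Hochberg) was tested on the same data, where 13 of its 87 calls were false, so adjusted p-values may be too small. Members, gene lists and named genes were chosen with earlier results of these data known. Named were the study's genes and, of the members, the first 2 by mean, range, SD over libraries and closeness to each limit. Python 3.11.15, R 4.3.3 and limma 3.58.1 were used.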

Additional observations from a re-analysis of the deposited data

How the results depend on the processing

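The number of steady abundant genes followed the limits chosen. It was 389 with a minimum of 20 FPKM, 25 with a minimum of 100 FPKM, 2032 with no minimum, 25 with a range of at most 0.1, 145 with at most 0.2 and 331 with at most 0.3, against 77. With 1 stage left out it was 375 (0CU), 162 (200CU), 117 (475CU) and 184 (770CU). A pseudocount of 0.1 gave 77. The same total over all features gave 37 and moved the median range of the members to 0.33. It moved their median SD over libraries to 0.149 and the difference of UBQ between 770CU and 0CU to 0.30. Quantile normalization moved the range of the median member to 0.154. With 1 library left out, the number among split features ran from 48 to 68, the features called by limma from 4891 (without the smaller 770CU library) to 7615, against 8033, with 5282 without the larger 770CU library. The difference of UBQ between 770CU and 0CU ran from -0.27 to 0.21 and that between 200CU and 0CU from -1.23 to -0.72. These omissions and the scalings for UBQ were in part chosen after seeing the data. A stage left with 1 library was assumed to vary like the others in limma. No paired analysis was possible because the recovered libraries carry no replicate numbers. Fragment numbers, known for 59 of 77 members, limit precision most in short features.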

Other observations

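PpFLESHY (PRUPE_6G159200), the gene that the study followed in fruit, was far below the steady genes in the buds, with 0.153, 0.232, 0.348 and 0.921 FPKM at 0, 200, 475 and 770CU. These levels lie under the minimum used for limma, and the gene was not tested.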
